A study of Mus musculus with 12 samples.

Results

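The effect of halofuginone on gene expression in activated mouse T cells was compared between 3 h and 6 h of treatment, gene by gene. The quantity reported is a difference of differences: the halofuginone (HF) effect at 6 h, HF minus MAZ1310, less the HF effect at 3 h. All 12 of the 12 arrays of the series enter it, and it was computed for 18193 genes, each represented by 1 probe set, the one with the highest mean over the 12 arrays among those annotated to a single gene symbol. The study treated CD4+ CD25- T cells from C57B/6J mice (Jackson), stimulated through CD3 and CD28 with antibodies and cultured in TGFb plus IL-6, which are conditions that polarize naive cells toward the Th17 fate. The 4 groups were 10 nM MAZ1310 for 3 h, 10 nM MAZ1310 for 6 h, 10 nM HF for 3 h and 10 nM HF for 6 h, with 3 arrays each. Activation, cytokines, strain and dose were common to all 4 groups, and MAZ1310, given in the labels as HF's inactive derivative, served as the control at both times. No untreated cells and no array before treatment entered the comparison, so a change with time under MAZ1310 is that of cells continuing through activation. The labels call the arrays of a group biological replicates without naming animals or cultures, so p-values speak only of the spread among these samples, which may be technical.

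Halofuginone inhibits the enzyme that charges tRNA with proline. Uncharged tRNA activates the kinase GCN2, which phosphorylates the initiation factor eIF2, lowers translation in general and raises translation of the transcription factor ATF4, which in turn activates genes of amino acid synthesis and transport. This is called the amino acid response, and in T cells halofuginone is known for limiting Th17 differentiation through it. Activated T cells meanwhile pass through their own programme over the first hours, in which early genes fall and genes of growth and division rise, so an HF effect can change between 2 times because the HF cells moved, because the control cells moved, or both.

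Values are log2 intensity throughout, and effects and differences are on that log2 scale with a standard error (SE), n = 3 arrays per group. The 4 group means were fitted together with limma, and a gene was called where the Benjamini-Hochberg adjusted p over all 18193 genes was under 0.05. The HF effect changed between the times for 328 genes, which is 1.8% of those tested. The difference was higher, meaning a larger or less negative HF effect at 6 h, for 161 genes (0.885%) and lower for 167 (0.918%). It reached 1 on the log2 scale for 57 called genes (0.313%), 34 higher and 23 lower, and it ran from -1.85 for Ddit4 to 2.91 for Cth. By comparison HF against MAZ1310 was called for 1726 genes (9.49%) at 3 h and 3085 genes (17%) at 6 h. The genes nearest the threshold were Nudt1 (difference -0.63), Hectd2 (0.78) and Gpr65 (0.49), inside at a limma adjusted p of 0.0496 each when rounded, and Tmem201 (0.64; 0.0514), Anapc16 (-0.65; 0.0524) and Sinhcaf (0.91; 0.0524) outside.

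Called genes were sorted by the group means, with an effect counted as present at a time where it reached 0.5 in size. An effect present at 6 h and not at 3 h is called delayed, present at 3 h and not at 6 h transient, and present at both times with opposite signs sign-changing. Of the genes with an effect at both times in 1 direction, those with the larger effect at 6 h are called growing and those with the smaller effect shrinking. The delayed class held 180 of the 328 genes (54.9%), 64 with HF higher at 6 h and 116 with HF lower. Their effect at 3 h was under 0.5 but need not be absent. At 3 h the compounds did not overlap in 19 of the 64 and in 42 of the 116, against 22.8% of all genes. The growing class held 46 (14%; 22 higher with HF and 24 lower) and the transient class 49 (14.9%), of which 42 were lower and 7 higher with HF at 3 h. The shrinking class held 2 genes and the sign-changing class 3, while 48 genes (14.6%) reached 0.5 at neither time. These classes rest on a size: at 3 h Ppm1m and Gcdh (-0.51 each) lay just inside it and Vamp4 and Map3k8 (each 0.50 when rounded) just outside, and at 6 h Hs3st3b1 and Dnajb9 (0.50 each) lay just inside and Igbp1 and Ddit4 (-0.50 each) just outside.

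**Figure D1:**
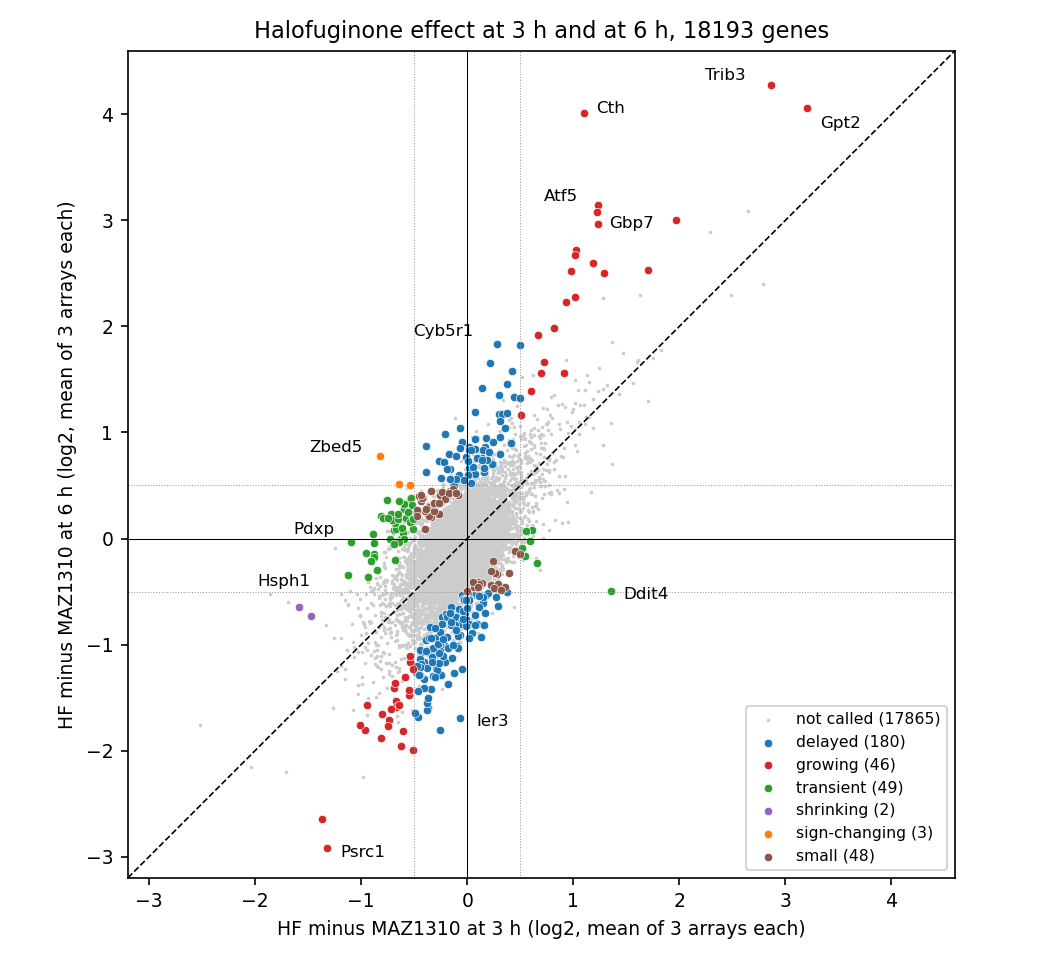
HF minus MAZ1310 at 3 h (horizontal axis, log2) against HF minus MAZ1310 at 6 h (vertical axis, log2) for 18193 genes. Grey points are genes whose difference was not called, coloured points are the 328 called genes by class, the dashed diagonal marks an equal effect at both times, and dotted lines mark 0.5 in size. Delayed genes lie within 0.5 of 0 on the horizontal axis and at 0.5 or more from it on the vertical axis. Cth lies farthest above the diagonal (2.91) and Ddit4 farthest below it (-1.85).

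The changes within each compound describe which cells moved. Here a gene changed, rose or fell under a compound where limma called it between the times. A gene without such a call may also have moved. Of the 161 genes with a higher difference, 61 changed with time only under HF, where all of them rose, and 44 changed only under MAZ1310, where all fell. Another 50 changed in 1 direction under both compounds, 34 falling and 16 rising, and 6 moved in opposite directions. Of the 167 genes with a lower difference, 99 changed only under MAZ1310, where they rose, and 31 only under HF, where they fell. A further 18 rose under MAZ1310 and fell under HF, and 18 moved in 1 direction under both. MAZ1310 cells moved farther than HF cells for 119 of the 167 lower genes and for 81 of the 161 higher genes. The median change from 3 h to 6 h of the lower genes was 0.60 under MAZ1310 and -0.13 under HF, and that of the higher genes was -0.39 and 0.38. For comparison 3595 of all genes (19.8%) were called between the times under MAZ1310 and 2838 (15.6%) under HF. The difference shares its 12 arrays with these time contrasts, so they describe it and add no separate evidence.

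**Figure D2:**
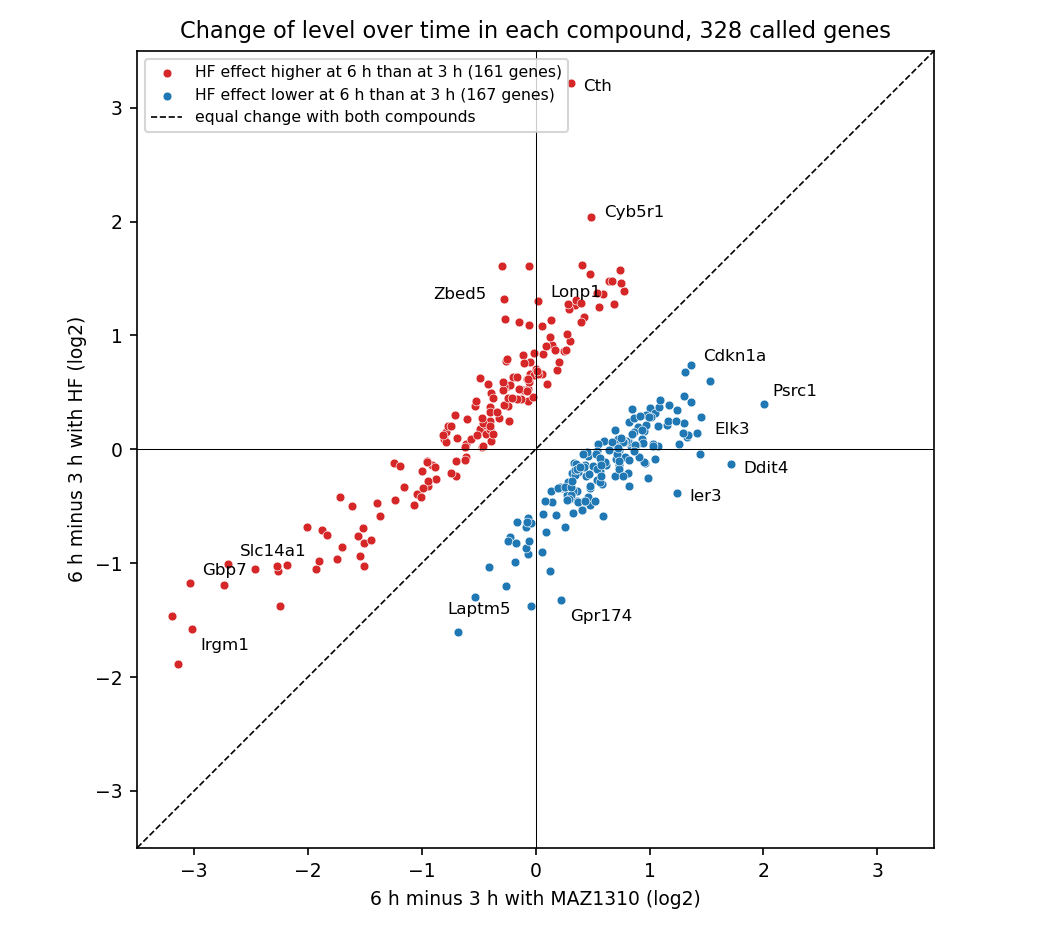
Change from 3 h to 6 h under MAZ1310 (horizontal axis, log2) against the change under HF (vertical axis, log2) for the 328 called genes, with 161 higher differences in red and 167 lower in blue. The dashed diagonal marks an equal change under both compounds. Many blue points lie to the right near 0 on the vertical axis, with a median of 0.60 under MAZ1310 and -0.13 under HF.

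Among genes of the amino acid response, the HF effect was already present at 3 h and grew for a few members. Of 23 measured genes of ATF4 and its targets, 18 were called higher with HF at 3 h (2.83% of all genes) and 17 at 6 h (5.22%). The difference was called higher for 4 and lower for 2 (Ddit4 and Cdkn1a), with a median of 0.11 against -0.01 over all genes tested. Of all genes 0.885% had a called higher difference and 0.918% a called lower one. Of 19 amino acid synthesis enzymes 2 were called higher and 0 lower (median 0.16), and of 19 amino acid transporters 2 were called higher and 1 lower (median 0.14). The limma fit called 0 of 19 aminoacyl tRNA synthetases, and 2 passed an unadjusted p of 0.05 (median 0.14), while 10 of them were called higher with HF at 3 h and 11 at 6 h. With the replicate number as a block within each time, since same-numbered arrays shared deviations, the higher counts became 4 for the enzymes and 5 for the transporters.

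Cth, cystathionine gamma-lyase, which releases cysteine in the last step of transsulfuration, had the highest difference of all genes. Its log2 intensity was 4.54, 4.68 and 4.51 with MAZ1310 at 3 h and 4.57, 5.08 and 5.03 at 6 h, and 5.18, 6.25 and 5.61 with HF at 3 h and 8.73, 9.03 and 8.93 at 6 h. The 3 HF arrays at 6 h stood apart from the other 9, and at neither time did the compounds overlap, as for 22.8% of all genes at 3 h and 36.8% at 6 h. The HF effect went from 1.10 to 4.01, a difference of 2.91 ± 0.28 (SE; limma adjusted p = 0.000199). Its MAZ1310 values and its HF values at 3 h lay below the array medians of 6.60 to 6.68, where background compresses fold changes, so the effects at both times, and with them the size of the difference, are less certain than the SE says. With 32 added to the intensity the effect went from 0.59 to 3.04, a Cth difference of 2.45.

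Atf5, an ATF4-related transcription factor of the mitochondrial stress response, was 8.31, 8.89 and 8.55 with MAZ1310 at 3 h and 8.27, 8.31 and 8.28 at 6 h. With HF it was 9.48, 10.13 and 9.82 at 3 h and 11.26, 11.61 and 11.41 at 6 h. The HF arrays lay above all MAZ1310 arrays at both times, and they rose with time (1.61) while MAZ1310 arrays did not pass the test (-0.30). The effect went from 1.23 to 3.14, a difference of 1.91 ± 0.22 (SE; limma adjusted p = 0.00073). Trib3, a pseudokinase that binds ATF4 and CHOP, already stood far apart at 3 h, at 10.52, 10.53 and 10.61 with HF against 7.26, 7.66 and 8.13 with MAZ1310. At 6 h it was 11.69, 11.53 and 11.87 with HF against 6.91, 8.04 and 7.30. Its effect went from 2.87 to 4.28, a difference of 1.41 ± 0.33 (SE; limma adjusted p = 0.0409), and the call was lost when any of 10 of the 12 arrays was left out. On its other, dimmer probe set the Trib3 effect went from 2.48 to 3.92. That difference of 1.44 had a clearer limma result than the probe set used for Trib3. Its promoter is shown because it holds, in the reverse direction and starting 14 bases after the gene start, the ATF4-type composite element TGATGNAA, in capitals:
Trib3: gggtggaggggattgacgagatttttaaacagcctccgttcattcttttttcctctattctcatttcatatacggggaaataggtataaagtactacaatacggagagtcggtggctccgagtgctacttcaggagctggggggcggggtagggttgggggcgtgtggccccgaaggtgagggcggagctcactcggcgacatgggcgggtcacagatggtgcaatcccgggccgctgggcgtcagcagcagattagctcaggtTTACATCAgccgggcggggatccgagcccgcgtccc
The stretch is chr2:152344011-152344310 on the minus strand of GRCm38.p6, from RefSeq, read 5′ to 3′ along the gene. Of 22 genes of the ATF4 list with a promoter in the RefSeq table, 7 held TGATGNAA on either strand (31.8%), against 4.06% of 27025 promoters, 1 per gene. It was in 4 of the 270 called genes with a promoter (1.48%) and in 2.76% of the 14452 tested genes with one. A match describes letters and was not tested as a binding site, and the promoters printed here were chosen after the matches were seen.

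The transporters Slc7a3 (cationic amino acids) and Slc6a9 (glycine) were the 2 transporters with higher differences, at 1.66 ± 0.24 (SE; limma adjusted p = 0.00332; effect 1.01 to 2.67) and 1.22 ± 0.14 (SE; 0.00073; 1.29 to 2.50). Slc16a10, a transporter of aromatic amino acids, was the 1 with a lower difference, and it differed in kind: it rose under MAZ1310 (0.92) more than under HF (0.29), for a difference of -0.63 (limma adjusted p = 0.0167). The transcription factor gene Cebpb grew from 1.97 to 3.01 (difference 1.04 ± 0.15, SE; limma adjusted p = 0.00351). Gpt2, a mitochondrial alanine aminotransferase, grew from 3.21 to 4.06 (0.86), and Vegfa, an angiogenic growth factor gene, from 1.70 to 2.54 (0.84). Other well-known members had large effects at both times with differences that did not pass: Asns (asparagine synthetase) went from 1.63 to 2.29, Chac1 from 2.65 to 3.09, Atf3 from 1.61 to 1.69 and Ddit3 (CHOP) from 2.49 to 2.30. The transcript of Atf4 itself went from 0.47 to 0.66, a difference of 0.20 that was not called. The Asns difference was 0.66 ± 0.25 (SE), at a limma adjusted p of 0.232 and of 0.0058 with the block within time.

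No delayed gene was among the called members of the ATF4 list. Whether the delayed increases depend on ATF4 or ATF5 was not tested. Cyb5r1, a cytochrome b5 reductase, was 8.83, 9.17 and 8.98 with MAZ1310 at 3 h and 9.43, 9.55 and 9.48 at 6 h, and 9.18, 9.45 and 9.20 with HF at 3 h and 11.18, 11.47 and 11.30 at 6 h. The compounds lay side by side at 3 h, with the lowest HF array just above the highest MAZ1310 array, and stood far apart at 6 h. The effect went from 0.28 to 1.83, a difference of 1.55 ± 0.15 (SE; limma adjusted p = 0.000199). Lonp1, the protease of the mitochondrial matrix, had the same shape: 9.26, 9.62 and 9.73 with MAZ1310 at 3 h, 9.47, 9.62 and 9.56 at 6 h, 9.59, 9.74 and 9.68 with HF at 3 h, and 10.91, 10.97 and 11.03 at 6 h. MAZ1310 arrays did not pass the test between the times (0.02) while HF arrays rose (1.30), so the effect went from 0.14 to 1.42, a difference of 1.28 ± 0.15 (SE; limma adjusted p = 0.00073). Hk2 (hexokinase; difference 1.00) and Pfkp (phosphofructokinase; 0.68) rose under HF in the same way, and with Vegfa they were the 3 called of 19 glycolysis and hypoxia genes (3 higher, 0 lower, median 0.14). At 3 h 10 of the 19 were called lower with HF and 1 higher (6.66% and 2.83% of all genes). At 6 h 5 were called lower and 4 higher (11.7% and 5.22%).

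**Figure D3:**
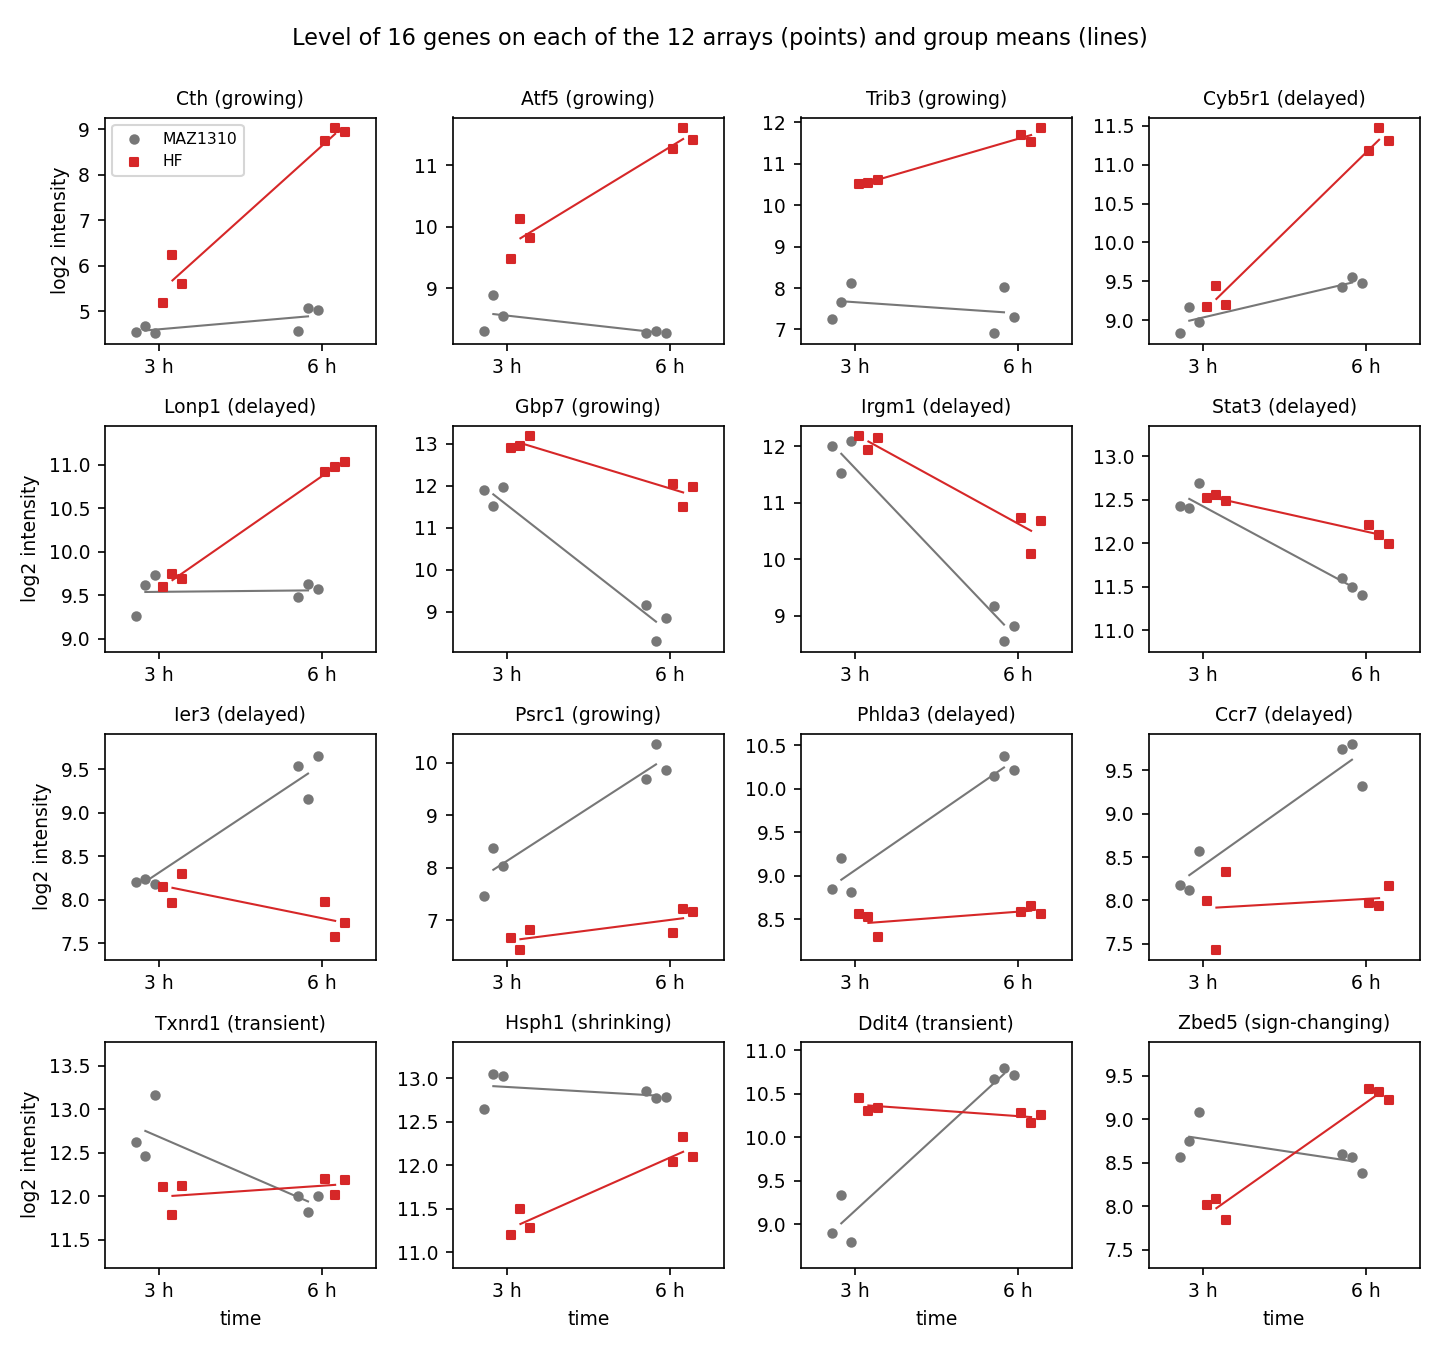
Log2 intensity (vertical axis) of 16 genes on each of 12 arrays, MAZ1310 as grey circles and HF as red squares at 3 h and 6 h (horizontal axis), with lines joining the group means of 3 arrays. Cth, Atf5, Cyb5r1 and Lonp1 rise under HF, Gbp7, Irgm1 and Stat3 fall less under HF than under MAZ1310, Ier3, Psrc1, Phlda3 and Ccr7 rise under MAZ1310, and Ddit4 and Zbed5 cross between the times.

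The largest shift of any list was that of the interferon-inducible GTPases, proteins that defend cells against intracellular microbes and are induced by interferons. Of 12 measured, 8 had a called higher difference and 0 a called lower one (0.885% and 0.918% of all genes). The median was 1.18, and all 12 values lay above 0, also under both other scalings. The list was chosen with earlier results of these data known, so its count describes these arrays. Under MAZ1310, 10 of the 12 fell from 3 h to 6 h (median -2.22; 7.64% of all genes fell), and under HF 9 fell, by less (median -1.04; 7.27%). The HF effect on these genes therefore grew while their levels fell under both compounds. With any 1 array left out, 7 to 9 of them were called.

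Gbp7, a guanylate-binding protein, was 11.90, 11.52 and 11.97 with MAZ1310 at 3 h and 9.16, 8.29 and 8.84 at 6 h. With HF it was 12.91, 12.96 and 13.19 at 3 h and 12.05, 11.51 and 11.98 at 6 h. The HF arrays were above the MAZ1310 arrays at both times, and HF arrays at 6 h were level with MAZ1310 arrays at 3 h. The effect went from 1.22 to 3.08, a difference of 1.86 ± 0.27 (SE; limma adjusted p = 0.00332). Its change with time was -3.04 under MAZ1310 and -1.18 under HF. Gbp8 (1.73 ± 0.29, SE) and Gbp6 (1.41 ± 0.19, SE) had the same course, with limma adjusted p of 0.00783 and 0.00242. Irgm1, an immunity-related GTPase, was 11.99, 11.52 and 12.08 with MAZ1310 at 3 h against 12.18, 11.92 and 12.14 with HF, and 9.17, 8.55 and 8.82 against 10.73, 10.10 and 10.68 at 6 h. Its arrays overlapped at 3 h and not at 6 h, and the effect went from 0.22 to 1.66, a difference of 1.44 ± 0.26 (SE; limma adjusted p = 0.0113). Igtp (0.42 to 1.58) and Ifi47 (-0.21 to 0.99) were delayed likewise, and Iigp1 (difference 1.25) and Irgm2 (1.17) were called. Gbp2 (1.00; limma adjusted p = 0.0688) and Gbp3 (0.42) were not called, and Mx1 (0.14) and Mx2 (0.04), GTPases typical of type I interferon, stayed near 0.

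Promoters of 3 of these GTPases, from 250 bases before to 50 after the gene start, are shown for the motifs that many of the family share. Capitals mark matches on either strand of a pair of GAAA with any 2 bases between, the core of an interferon-stimulated response element (the GAAA pair), and of TTCNNNGAA, the letters bound by STAT dimers.
Gbp7: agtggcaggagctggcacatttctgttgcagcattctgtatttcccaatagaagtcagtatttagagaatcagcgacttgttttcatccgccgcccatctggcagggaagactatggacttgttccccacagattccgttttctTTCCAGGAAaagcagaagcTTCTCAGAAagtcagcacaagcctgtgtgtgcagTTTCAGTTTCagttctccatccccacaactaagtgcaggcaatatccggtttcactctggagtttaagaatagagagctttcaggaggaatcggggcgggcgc
Irgm1: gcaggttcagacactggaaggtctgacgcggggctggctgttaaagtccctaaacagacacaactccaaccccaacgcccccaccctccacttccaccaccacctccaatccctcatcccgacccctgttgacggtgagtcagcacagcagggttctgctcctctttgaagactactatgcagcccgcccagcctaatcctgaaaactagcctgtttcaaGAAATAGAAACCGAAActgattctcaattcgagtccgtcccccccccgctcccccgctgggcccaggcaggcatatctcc
Igtp: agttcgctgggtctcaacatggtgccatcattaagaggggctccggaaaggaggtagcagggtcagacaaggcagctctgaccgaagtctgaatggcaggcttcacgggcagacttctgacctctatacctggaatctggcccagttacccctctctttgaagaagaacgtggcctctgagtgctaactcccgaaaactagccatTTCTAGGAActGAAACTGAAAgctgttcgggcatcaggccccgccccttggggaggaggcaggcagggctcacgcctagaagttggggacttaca
They are from RefSeq on GRCm38.p6: chr3:142530086-142530385 (plus strand), chr11:48871371-48871670 (minus strand) and chr11:58199306-58199605 (plus strand), each read along its gene. Gbp7 held 1 match of the GAAA pair, starting at -53, and 2 of TTCNNNGAA; Irgm1 held 2 overlapping matches of the GAAA pair at -30 and -24; Igtp held TTCNNNGAA at -45 directly before the GAAA pair at -34. Of the 7 measured GTPases with a promoter in the table, 6 held the GAAA pair (85.7%), against 3.49% of all 27025 promoters, 3.02% of those of tested genes and 17 of the 270 called genes with a promoter (6.3%). TTCNNNGAA was in 3 of the 7, against 8.47% of all and 7.29% of tested genes. These counts were not set against chance, and family members share ancestry, so they are not independent.

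The other interferon-stimulated genes were less marked: of 24 measured, 1 was called higher and 0 lower (median 0.13), and the higher count was 3 with the block within time. The called gene was Tap1, the antigen peptide transporter, whose effect went from 0.91 to 1.56 (difference 0.65). Irf1, an interferon-induced transcription factor, was higher with HF at both times (1.04 and 1.40), with a difference of 0.36 that was not called. Ifng differed by 0.08 (limma adjusted p = 0.974). Of 11 Th1 genes 1 was called higher and 0 lower (median 0.14; 3 higher with the block). That gene was Tbx21, which encodes the Th1 regulator T-bet, with a difference of 0.79 ± 0.16 (SE; limma adjusted p = 0.0202; effect 0.60 to 1.39).

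IL-6, present in all cultures, signals through the receptor chain gp130 and the transcription factor STAT3. Of 20 IL-6 and STAT3 response genes (median 0.35, 17 values above 0), 3 were called higher and 0 lower (0.885% and 0.918% of all genes). They were Il6st (gp130), Stat3 and Socs3, a feedback inhibitor, and all 3 fell with time under both compounds, by less under HF. Stat3 was 12.42, 12.40 and 12.70 with MAZ1310 at 3 h against 12.51, 12.55 and 12.48 with HF, and 11.60, 11.50 and 11.41 against 12.21, 12.09 and 11.99 at 6 h. The arrays overlapped at 3 h and not at 6 h. The difference was 0.59 ± 0.13 (SE; limma adjusted p = 0.0369) for Stat3, 0.82 ± 0.13 (SE; 0.00465) for Il6st and 0.92 ± 0.22 (SE; 0.0485) for Socs3. The other Stat3 probe sets differed in the same direction by 0.29, 0.29 and 0.43. None of those passed an unadjusted limma p of 0.05 (0.0944, 0.271 and 0.138). The Stat3 call was lost when any of 7 arrays was left out and the Socs3 call when any of 10 was, while Il6st kept its call without any 1 array. The count was 1 to 4 with 1 array left out, 1 without MAZ1310 6 h replicate 2, and 5 with the block within time. Of 13 Th17 genes 1 was called higher, which was Stat3 again, and 0 lower (median 0.05), and Il17a had a difference of -0.04 ± 0.47 (SE; limma adjusted p = 0.987). Rora, a nuclear receptor of the Th17 programme, differed by -0.36, which was not called.

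The p53 targets moved the other way. p53 is the DNA damage-responsive transcription factor whose targets halt the cell cycle, repair DNA or promote death. Of 22 measured targets, 8 had a called lower difference and 0 a called higher one (0.918% and 0.885% of all genes). The median was -0.51, with 17 values below 0. Under MAZ1310, 13 of the 22 rose from 3 h to 6 h (median 0.52; 12.1% of all genes rose), and under HF 6 did (median 0.13; 8.33%). At 6 h 14 were called lower with HF and 1 higher (11.7% and 5.22% of all genes), against 10 and 1 at 3 h (6.66% and 2.83%). With 1 array left out the count was 5 to 9, and 5 without HF 3 h replicate 1.

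Psrc1, a microtubule-binding protein of the mitotic spindle, had the lowest difference of the list. It was 7.47, 8.38 and 8.03 with MAZ1310 at 3 h and 9.69, 10.35 and 9.85 at 6 h, against 6.66, 6.45 and 6.83 with HF at 3 h and 6.76, 7.21 and 7.15 at 6 h. All HF arrays at each time lay below all MAZ1310 arrays of that time. The MAZ1310 cells rose by 2.00 while the change under HF was 0.40 and did not pass, so the effect went from -1.32 to -2.92, a difference of -1.60 ± 0.29 (SE; limma adjusted p = 0.0114). Gtse1, a G2 and S phase protein that restrains p53, had a difference of -1.22 ± 0.14 (SE; limma adjusted p = 0.00071), and Phlda3, an inhibitor of AKT, one of -1.15 ± 0.16 (SE; 0.00242). Both rose under MAZ1310 (1.26 and 1.29) with 0.05 and 0.14 under HF. The other called targets were Ddias (effect -1.37 to -2.65), Plk2 (difference -0.99), Ei24 (-0.84), the translesion polymerase gene Polk (-0.75) and Cdkn1a, the p21 cell cycle inhibitor (-0.62). The Ddias call was lost without HF 3 h replicate 1 and the Cdkn1a call without any of 9 arrays. Ccng1 was lower with HF at both times (-1.71 and -2.20), with a difference of -0.49 that was not called. Its other, dimmer probe sets differed by -0.75 and -0.47, at an unadjusted limma p of 1e-04 and 0.0611. Pmaip1 (NOXA) differed by -1.09 at a limma adjusted p of 0.0539, which was 0.00194 with the block within time. Bbc3 (PUMA), Mdm2 and Fas were not called.

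**Figure D4:**
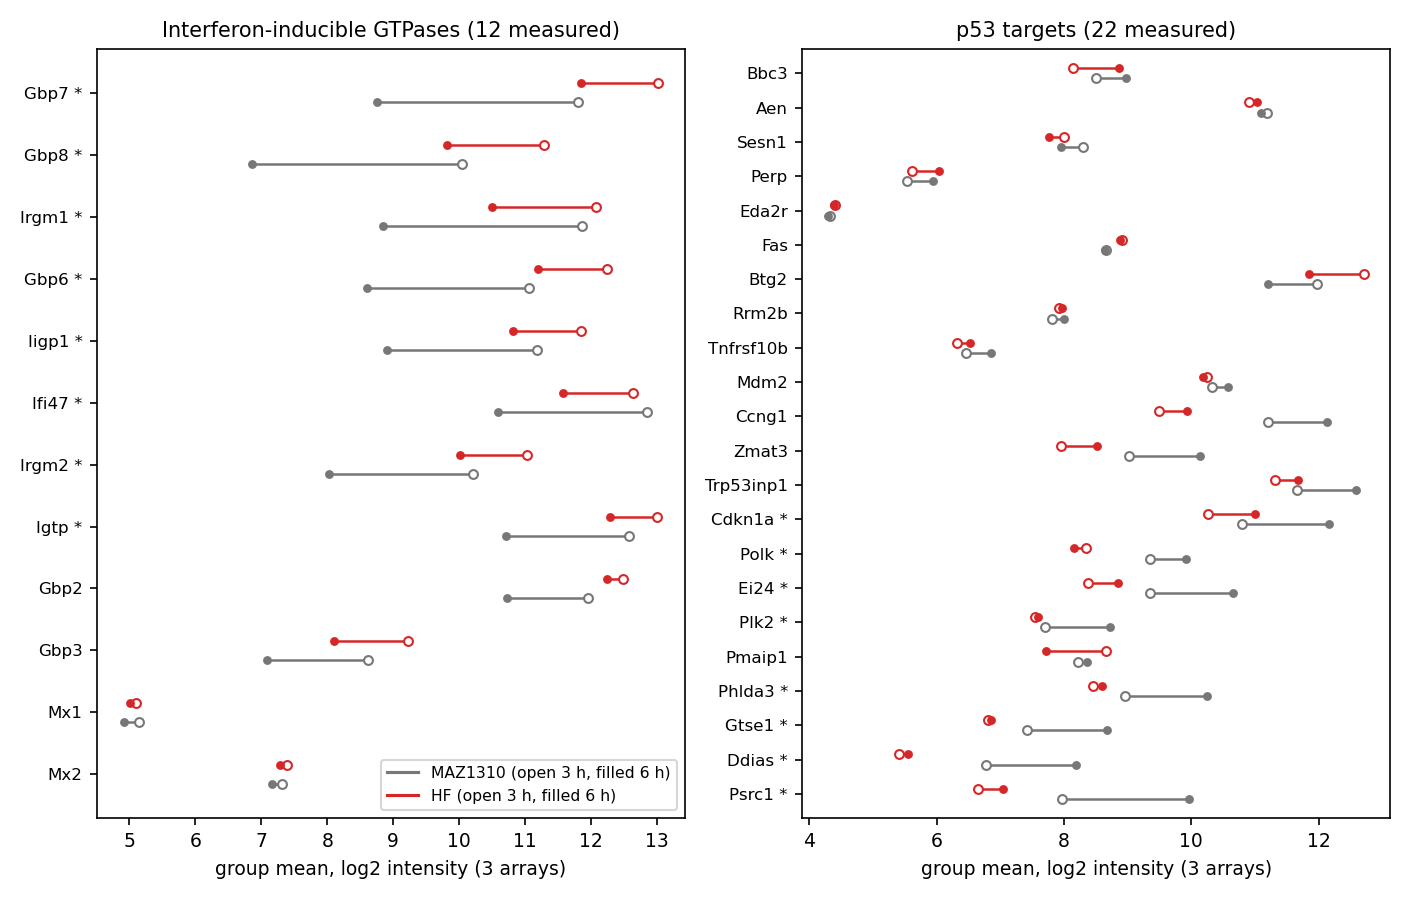
Group means of log2 intensity (horizontal axis, 3 arrays each) of 12 interferon-inducible GTPases and 22 p53 targets, one per line, with MAZ1310 in grey, HF in red, 3 h as open and 6 h as filled points, and an asterisk at each called difference. The GTPases fall from open to filled points, farther in grey than in red, and the called p53 targets rise in grey with little change in red.

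Delayed decreases formed the largest class, with 116 genes, and 70 of these were called between the times only under MAZ1310. Ier3, an immediate early gene of stress and survival signalling, was 8.20, 8.24 and 8.18 with MAZ1310 at 3 h against 8.15, 7.96 and 8.30 with HF, and 9.54, 9.16 and 9.65 against 7.97, 7.57 and 7.73 at 6 h. The arrays overlapped at 3 h and were more than 1 apart at 6 h. The effect went from -0.07 to -1.69, a difference of -1.62 ± 0.18 (SE; limma adjusted p = 0.00071). Ier3 was the 1 called gene among 31 immediate early genes (0 higher, 1 lower, 4 and 3 with the block within time), whose median was 0.26, with 23 above 0. Egr1 (0.47) and Fos (0.35), transcription factors of that list, were not called.

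Several delayed decreases were lymphocyte surface or signalling genes. Ccr7, the chemokine receptor that guides T cells to lymph nodes, was 8.18, 8.12 and 8.57 with MAZ1310 at 3 h against 7.995, 7.43 and 8.32 with HF, and 9.74, 9.80 and 9.32 against 7.97, 7.94 and 8.17 at 6 h. Its arrays overlapped at 3 h and not at 6 h. It rose under MAZ1310 (1.33) with a change of 0.11 under HF that did not pass, for a difference of -1.22 ± 0.27 (SE; limma adjusted p = 0.0292). Slamf6, a costimulatory receptor, had the same shape (0.13 to -0.93; difference -1.06 ± 0.13, SE; limma adjusted p = 0.00169). Gpr174 (difference -1.55), a lysophosphatidylserine receptor, and Rgs10 (-1.19), a regulator of G protein signalling, instead fell under HF (-1.33 and -1.07), with 0.23 and 0.12 under MAZ1310. Cd52, a small glycoprotein anchored on lymphocytes, differed by -1.24, Elk3, an ETS factor, by -1.17, and Bach2, a repressor of effector differentiation, by -0.79. Bach2 and Ccr7 were the 2 called lower of 14 naive T cell and homing genes, and Satb1, a chromatin organiser, the 1 called higher (0.67; list median -0.22). Slamf6 was the 1 called lower of 20 T cell receptor and proximal signalling genes (0 higher, median -0.27), and that count was 3 with the block within time. The Ccr7 and Cd52 calls were lost when any of 7 arrays was left out.

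General T cell markers moved in the same direction as these genes. The limma fit called 0 of 10 T cell markers, 3 passed an unadjusted p of 0.05, all 10 differences were below 0 (median -0.32), and 2 were called lower with the block within time. The log2 of their summed intensity was 14.4 to 14.6 with HF at 6 h, against 14.9 to 15.0 with MAZ1310 at 6 h, 14.8 to 15.1 with HF at 3 h and 14.9 to 15.2 with MAZ1310 at 3 h. At 6 h 8 of the 10 were called lower with HF (11.7% of all genes), and at 3 h 0 were (6.66%). Thy1 differed by -0.99 (limma adjusted p = 0.109; 0.0126 with the block). The part of the markers' decrease in the lower differences was not tested, and in bulk RNA fewer cells of a type and less RNA per cell cannot be told apart. Among markers of other cells, 1 of the B cell list was called lower at 6 h than at 3 h under each compound, and 1 of the CD8 T or NK list under MAZ1310. For the difference of effects, 0 of 7 B cell, 0 of 10 myeloid, 0 of 8 CD8 T or NK, 0 of 5 MHC class II presenting and 0 of 4 erythroid or platelet markers were called, and 1, of the class II list, passed an unadjusted p of 0.05. Their medians were -0.03, 0.01, 0.05, 0.09 and 0.02, and 2, 7, 3, 1 and 3 of them lay below the array median, in the same order. The brightest were Ighm (mean log2 intensity 9.49), Csf1r (7.93), Nkg7 (8.12), Cd74 (8.94) and Itga2b (8.85), against 9.56 to 12.5 for the T cell markers.

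Other growing decreases included genes of secretion and metabolism. Gcdh, an enzyme of lysine breakdown, went from -0.51 to -1.99 (difference -1.49 ± 0.19, SE; limma adjusted p = 0.00186). Pdia3 (-0.85) and Pdia4 (-0.71), disulfide isomerases of the endoplasmic reticulum, were the 2 called lower of 22 endoplasmic reticulum chaperone and degradation genes, and Dnajb9, a co-chaperone of BiP, the 1 called higher (0.62; list median -0.18). Ccr8, a chemokine receptor, differed by -1.02 and was the 1 called of 10 Th2 genes, which was lower (0 higher, median -0.08; 1 higher with the block within time). Laptm5, a lysosomal membrane protein of lymphocytes, went from -0.63 to -1.96 (difference -1.33 ± 0.17, SE; limma adjusted p = 0.00218) on its brightest probe set. That value depended on the probe set: with probe sets of suffixed names left out, Laptm5 was read from a dimmer one and differed by 0.039 (limma adjusted p = 0.958). Its other suffixed probe sets differed by -0.91, -0.37 and -0.05, at an unadjusted limma p of 0.000954, 0.103 and 0.751.

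Transient effects were mostly decreases at 3 h that lay under 0.5 in size at 6 h, with 42 of 49 genes. An effect under 0.5 need not be absent. In 18 of the 42 the compounds did not overlap at 6 h, a share near the 36.8% of all genes. That count does not show whether an effect remained. Genes of redox defence and protein folding were among them. Of 14 NRF2 and thioredoxin genes, which NRF2 induces against oxidants, 4 were called higher and 0 lower (median 0.29). Over all genes the shares were 0.885% and 0.918%. Txnrd1, thioredoxin reductase, was 12.62, 12.46 and 13.17 with MAZ1310 at 3 h against 12.11, 11.78 and 12.12 with HF, and 12, 11.81 and 12.002 against 12.19, 12.01 and 12.19 at 6 h. HF arrays were all below the MAZ1310 arrays at 3 h and close to or just above them at 6 h. It fell by 0.81 under MAZ1310, with a change of 0.13 under HF that did not pass, for a difference of 0.94 ± 0.21 (SE; limma adjusted p = 0.0345). Gclc, of glutathione synthesis, went from -0.60 to 0.27 (difference 0.87) and Hmox1, heme oxygenase, from -0.52 to 0.31 (0.84). Nfe2l2, which encodes NRF2, differed in course: it was delayed, from 0.33 to 1.18 (0.85). The list's count was 1 without MAZ1310 6 h replicate 2 and at most 4 without any other array.

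Of 19 cytosolic heat shock genes, 3 were called higher and 1 lower (median 0.26), and 7 were called higher with the block within time. Without the block 0.885% of all genes were called higher and 0.918% lower. At 3 h 14 of the 19 were called lower with HF (6.66% of all genes), and at 6 h 8 were (11.7%). Hsph1, an HSP110 nucleotide exchange factor, was 12.65, 13.05 and 13.03 with MAZ1310 at 3 h against 11.20, 11.50 and 11.28 with HF, and 12.85, 12.77 and 12.79 against 12.04, 12.33 and 12.10 at 6 h. The compounds did not overlap at either time, but the gap was narrower at 6 h, since HF arrays rose by 0.83. The effect went from -1.58 to -0.65, a difference of 0.94 ± 0.16 (SE; limma adjusted p = 0.0102), and Hsph1 and the zinc transporter gene Slc39a10 (-1.47 to -0.73) made up the shrinking class. Dnajb1 (-0.85 to -0.30) and Hspa8 (-0.68 to -0.20), partner chaperones, were transient by class, and Hspa4l, a relative of Hsph1, was delayed and lower (difference -0.86). Hspa1b went from -1.86 to -0.52, a difference of 1.34 that was not called (limma adjusted p = 0.134; 0.0329 with the block). With 1 array left out the higher count was 1 (without MAZ1310 6 h replicate 2) to 6 (without MAZ1310 3 h replicate 1). The Hsph1 promoter is shown because it holds the heat shock element, TTC, any 2 bases, GAA, any 2 bases and TTC, in capitals, starting 36 bases after the gene start:
Hsph1: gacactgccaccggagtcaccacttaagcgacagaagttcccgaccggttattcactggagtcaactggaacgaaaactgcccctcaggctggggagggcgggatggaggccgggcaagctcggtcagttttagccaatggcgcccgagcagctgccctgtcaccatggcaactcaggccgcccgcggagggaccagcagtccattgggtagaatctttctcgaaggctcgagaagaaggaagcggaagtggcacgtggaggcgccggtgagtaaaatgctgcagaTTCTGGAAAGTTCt
It is chr5:149636287-149636586 on the minus strand of GRCm38.p6, from RefSeq, and is 1 of 2 Hsph1 promoters in the table. The element was in 3 of 17 heat shock genes with a promoter (17.6%), 0.529% of all 27025, 0.45% of tested genes and 1 of the 270 called genes (0.37%).

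The other transient decreases had varied roles. Amz1, a metallopeptidase, had the largest difference of them (1.12; effect -0.76 to 0.36), followed by Pdxp, a pyridoxal phosphate phosphatase, which went from -1.09 to -0.03 as HF arrays rose by 1.54. Jade3 (1.03), Ung, the uracil-DNA glycosylase (0.99), Kif21b, a kinesin (0.99), and Car12, a carbonic anhydrase (0.96), followed. Another probe set had the opposite sign for Kif21b (-0.19) and Car12 (-0.07), as for Tap1 (-0.11) and Hs3st3b1 (-0.07), and none of these passed an unadjusted p of 0.05. Smad3, a mediator of TGFb signalling, went from -0.54 to 0.16 (difference 0.70, limma adjusted p = 0.0496). It was the 1 called higher of 19 TGFb signalling genes (0 lower, median 0.07; 2 and 1 with the block within time).

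Ddit4, which encodes the mTORC1 inhibitor REDD1, had the lowest difference of all genes. It was 8.90, 9.34 and 8.80 with MAZ1310 at 3 h against 10.46, 10.30 and 10.34 with HF, and 10.68, 10.80 and 10.71 against 10.29, 10.16 and 10.25 at 6 h. The compounds did not overlap at either time, and their order was opposite at the 2 times. The HF arrays stayed level (-0.13) while MAZ1310 arrays rose by 1.72, so the HF effect of 1.35 at 3 h was -0.50 at 6 h (limma adjusted p = 0.00592), for a difference of -1.85 ± 0.16 (SE; limma adjusted p = 0.000139). By class it was transient, since its effect at 6 h was just under 0.5 in size. The other transient increases were small: H2aw, a histone H2A gene, differed by -0.88, Smim8 by -0.72, Cox7a2l, a factor of respiratory supercomplexes, by -0.62, Zfp429 by -0.61 and Klf7 by -0.54. Ddit4 was also the 1 called lower of 15 negative regulators of mTORC1 and 4E-BPs, with Trib3 the 1 called higher (list median 0.02).

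The 3 sign-changing genes were all lower with HF at 3 h and higher at 6 h. Zbed5, derived from a domesticated transposase, was 8.57, 8.75 and 9.08 with MAZ1310 at 3 h against 8.01, 8.08 and 7.84 with HF, and 8.60, 8.57 and 8.38 against 9.35, 9.32 and 9.22 at 6 h. No arrays overlapped at either time, and HF arrays rose by 1.32 while the change under MAZ1310 (-0.28) did not pass. The effect went from -0.82 to 0.78, a difference of 1.60 ± 0.16 (SE; limma adjusted p = 0.000318). Fnip2, a folliculin partner that links AMPK and mTORC1 signalling, was 8.22, 8.29 and 8.61 with MAZ1310 at 3 h against 7.52, 7.81 and 7.86 with HF, and 8.47, 8.30 and 8.17 against 8.85, 8.80 and 8.84 at 6 h. It had the same order of groups, with a difference of 1.15 ± 0.16 (SE; limma adjusted p = 0.00295; effect -0.64 to 0.51). Hs3st3b1, a heparan sulfate sulfotransferase, was 10.17, 10.03 and 10.31 against 9.82, 9.55 and 9.51 at 3 h, and 9.07, 8.77 and 9.09 against 9.57, 9.34 and 9.52 at 6 h. Here the MAZ1310 arrays fell by 1.19 and the HF change of -0.15 did not pass, for a difference of 1.05 ± 0.16 (SE; limma adjusted p = 0.00426; effect -0.54 to 0.50). The other Hs3st3b1 probe sets, all dimmer, differed by 0.18, 0.14 and -0.07, at an unadjusted limma p of 0.225, 0.289 and 0.671. All 3 sign-changing genes kept their call without any 1 array.

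Further delayed increases were Map3k8, the TPL2 kinase (difference 1.32), Nr1d2, the clock repressor REV-ERBbeta (1.27), Chd7, a chromatin remodeller (1.12), and Mnt, a MAX-binding repressor that opposes MYC (0.95). Slc14a1, a urea transporter, was in the growing class (1.69 ± 0.23, SE; limma adjusted p = 0.00242), with a change in time of -2.71 under MAZ1310 and -1.01 under HF. Mnt was the 1 called of 11 MYC, MAX and MXD genes (1 higher, 0 lower, median 0.08; 3 higher with the block within time). The delayed decrease of Fkbp2, a prolyl isomerase of the endoplasmic reticulum, was -1.22, that of Ctsb, cathepsin B, -0.57 and that of Mcm5, of the replicative helicase, -0.48. Mcm5 was the 1 called lower of 28 DNA replication genes (0 higher, median -0.11; 3 lower with the block).

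Lists of growth and division held few called genes, and some leaned 1 way as a whole. Of 28 oxidative phosphorylation genes limma called 0, and 8 passed an unadjusted p of 0.05, with 26 below 0 (median -0.34) and 2 called lower with the block within time. They rose under MAZ1310 for 17 of 28 (12.1% of all genes) and under HF for 4 (8.33%), and Ndufb9, of complex I, differed by -0.77 (limma adjusted p = 0.0691; 0.0214 with the block). Of 26 mitochondrial ribosomal proteins, 24 were below 0 (median -0.24), and 1, Mrpl39 (-0.52), was called lower and 0 higher, or 2 lower with the block. Of 24 proteasome subunits limma called 0, and 6 passed an unadjusted p of 0.05, with 22 below 0 (median -0.20). Ribosome biogenesis genes leaned the other way, with 25 of 27 above 0 (median 0.20) and 1, Rrp1b (0.66), called higher and 0 lower. Of 15 cytosolic ribosomal proteins limma called 0, and 0 passed an unadjusted p of 0.05 (median -0.05). Genes of a complex vary together, and these counts of signs were not tested. Over all genes tested, 8443 were above 0 and 9750 below.

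Of 24 mitosis and spindle genes 2 were called lower (Psrc1 and Gtse1, also p53 targets) and 0 higher (median -0.05), and of 16 G1 cyclins, kinases and inhibitors 1 lower, Cdkn1a, and 0 higher (median -0.05; 1 higher with the block within time). The limma fit called 0 of 20 sterol synthesis genes, with 7 past an unadjusted p of 0.05 (median -0.18) and 2 lower with the block, although 14 of them were called lower with HF at each time (6.66% of all genes at 3 h and 11.7% at 6 h), as for Idi1 (-1.26 and -1.60; difference -0.34). Among 21 autophagy and lysosome genes 2, Ctsb and Laptm5, were called lower and 0 higher (median -0.01). Of 14 Treg and Ikaros family genes 1, Tnfrsf18 (GITR; -0.72), was called lower and 0 higher (median 0.08; 1 higher with the block). Also at 0 in the limma fit were 25 cytokines of activated T cells (5 past an unadjusted p of 0.05; median -0.07; 2 called higher with the block), 15 checkpoint receptors and ligands (3; median -0.05), 8 GIMAP GTPases (1; median 0.18) and 12 BCL2 family genes (4; median 0.09; 2 higher and 1 lower with the block). Csf2, which encodes GM-CSF, differed by 0.97 (limma adjusted p = 0.104; 0.036 with the block) and Il2 by 0.20.

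**Figure D5:**
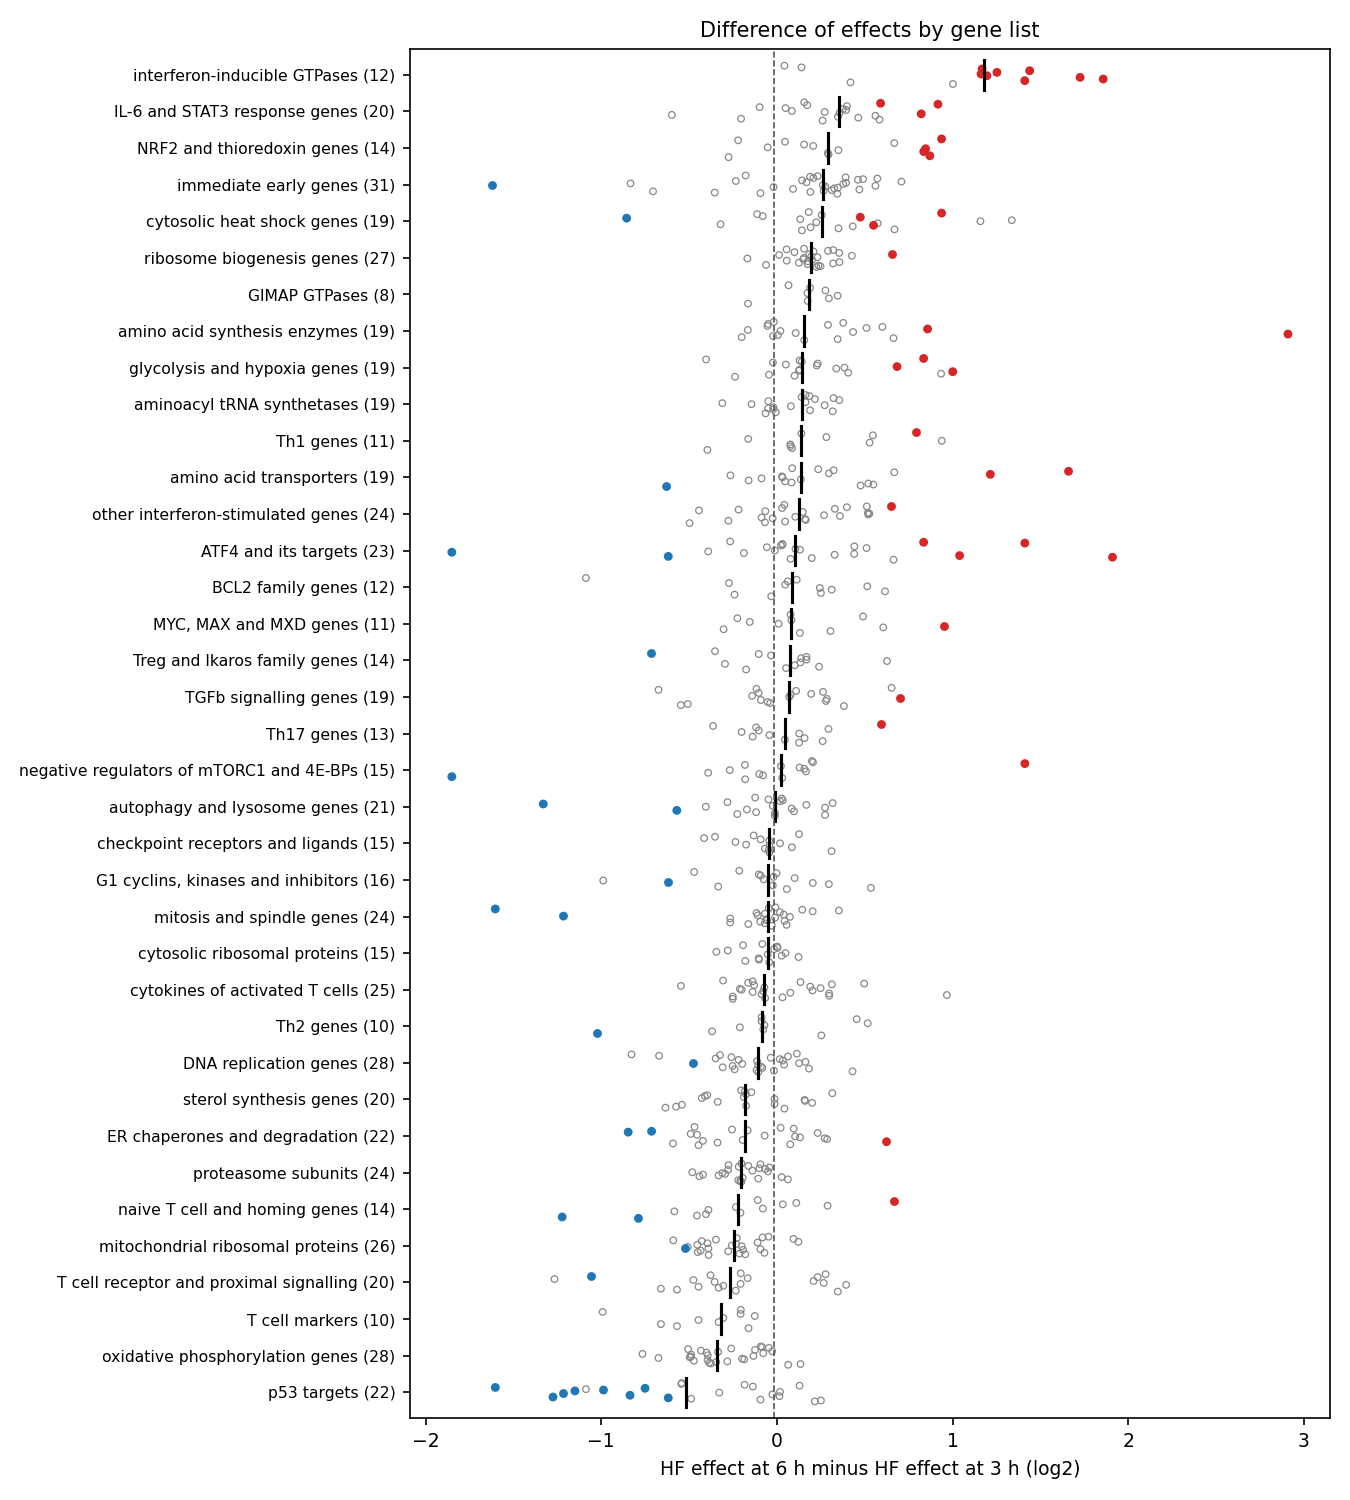
Difference of HF effects, 6 h minus 3 h (horizontal axis, log2), for each measured member of 36 gene lists and the T cell markers, 1 list per line. Filled red and blue points are called higher and lower, open points are not called, the black bar is the list's median and the dashed line the median of all genes (-0.01). The interferon-inducible GTPases (median 1.18) and the p53 targets (-0.51) lie farthest from it.

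The number of called genes depended on single arrays. It was 129 to 602 with 1 array left out, lowest without HF 3 h replicate 1 and highest without MAZ1310 3 h replicate 1, and 859 (401 higher, 458 lower) with the block within time. Of 81 named called genes 43 kept the call without any 1 array and 38 lost it without at least 1. Calls that ended when any of 8 or more arrays was left out, beside those given above, were those of Dnajb9, Hspa8, Mcm5, Ctsb, Hk2, Klf7, Rrp1b, Smad3, Bach2, Cox7a2l, H2aw, Mrpl39, Pfkp, Tnfrsf18, Txnrd1, Hmox1, Hspa4l and Kif21b, with limma adjusted p-values of at most 0.148 in such fits. The 3′ to 5′ ratio of the array's actin control, a sign of RNA quality, had a difference of differences of -0.02 on the log2 scale (2-sided exact permutation p = 0.955 over 400 relabelings of the compound within each time, smallest possible 0.005).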

How the data were processed

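Total RNA was extracted with Trizol, column-purified and labelled with biotin for Affymetrix hybridisation, with 1 array per sample, per the labels' protocols. The deposited values are linear intensity per probe set, which the authors made with RMA, per the submitters' processing notes. For its version and for scan batches, nothing is stated in the sources used here. RMA equalizes the distributions of arrays, so a shift common to all transcripts would not appear. No detection calls were used.

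Here log2 of the intensity was taken. Of 45101 probe sets, 34945 other than array controls carried a single symbol, and the brightest per gene represented 18193 genes, of which 9010 had several. Array medians were 6.60 to 6.68, and arrays of a group correlated at 0.9923 to 0.9974. A model of 4 group means on all 12 arrays was fitted with limma 3.58.1 in R 4.3.3 (lmFit, eBayes), with contrasts for the difference of effects, HF against MAZ1310 at each time, and time within each compound. The fit was tested on data simulated with independent noise on each array, so that test does not cover deviations shared by same-numbered arrays. P-values were adjusted by Benjamini-Hochberg over all genes. Adjusted p-values in the text are from limma.

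Replicate numbers are shared between groups in the labels. Deviations of same-numbered HF and MAZ1310 arrays from their group means had correlations from 0.242 to 0.381 at 3 h, and from 0.287 to 0.391 at 6 h. Between times same-numbered arrays correlated at 0.322 to 0.502 under HF and 0.0289 to 0.252 under MAZ1310. Same-numbered arrays thus shared deviations within a time and, under HF, also between times. These correlations do not decide between a block by number within each time and a block by number across both times. The block within time is given beside a result where it changes a call or moves a count by over 1.5 times. Total counts under both blocks are given below.

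Genes were named by rule: by size of the called difference, the 8 largest delayed in each direction, 6 transient, 5 growing, 5 sign-changing and 4 shrinking, a set of genes known from the amino acid response and T cell activation, and from each list at most 4 of its called genes (the largest difference where it had 0). Other list members and the genes at the thresholds were named after their values were seen. The lists hold 744 genes, 680 of them measured. The members and lists were chosen with earlier results of these data known. Promoters came from a RefSeq table of 32851 promoters of 27025 genes, which held 14452 of the tested genes. Alternatives were other probe set rules, cyclic loess, an offset, filters, a covariate for the actin 3′ to 5′ ratio, blocks, thresholds and leaving out arrays. Listed genes lacking such a probe set were not analysed here.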

Additional observations from a re-analysis of the deposited data

Results flagged for a closer look

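The HF effect differed between 6 h and 3 h for 328 genes by the limma test of the difference itself. Of these, 12 genes were called in opposite directions at the 2 times. Ddit4 was higher with HF at 3 h (1.35) and lower at 6 h (-0.50), for a difference of -1.85. Zbtb4, a zinc finger transcription factor gene, did likewise at smaller size (0.35 and -0.46; difference -0.82). The other 10 were lower with HF at 3 h and higher at 6 h. Zbed5 (difference 1.60), Fnip2 (1.15) and Hs3st3b1 (1.05) reached 0.5 in size at both times.

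The remaining genes crossed at smaller size. Cdr2 went from -0.53 to 0.38 (0.91) and Sema4d, a semaphorin of lymphocytes, from -0.45 to 0.40 (0.85). Zfp566 went from -0.44 to 0.42 (0.85), Bicdl1 from -0.41 to 0.39 (0.80) and Mfsd2a, a lysophospholipid transporter, from -0.44 to 0.35 (0.79). Glce, of heparan sulfate synthesis as is Hs3st3b1, went from -0.36 to 0.29 (0.65) and Pknox1, a homeodomain factor, from -0.32 to 0.26 (0.58). Groups of 3 arrays are too small for a test of single outlying arrays.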

How the results depend on the processing

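The 328 called genes kept their sign in every setting that tested the same probe sets. Without suffixed probe sets 289 were tested and 283 kept it, and Laptm5, then read from a dimmer probe set, reversed to 0.039. The counts moved more than the signs. With the replicate number as a block the count was 680 (322 higher, 358 lower; 342 delayed, 92 transient) and with the block within time 859 (401 and 458; 420 and 106). With the block and the actin covariate it was 819 (344 and 475; 321 and 177), and with the covariate alone 76 were transient. With the mean of probe sets 109 were lower and 115 delayed, without suffixed probe sets 103 lower and 32 transient, and over every probe set 218 were called, 97 lower. With log2 of the intensity plus 32, 32 were transient and 1 sign-changing. At an adjusted p under 0.01, 74 were called (42 and 32), and 57 (34 and 23) at 1 or more in size. With a class size of 0.3, 25 were sign-changing. With a class size of 1, 97 were delayed, 5 transient and 0 sign-changing. By calls at each time 12 were sign-changing. Leaving out arrays gave 38 to 602 in all, 19 to 386 higher, 6 to 216 lower, 15 to 238 delayed, 1 to 138 transient and 2 to 4 sign-changing. Single arrays that moved the total by over 1.5 times were MAZ1310 3 h replicate 1 (602), MAZ1310 6 h replicates 2 and 3 (141 and 172), HF 3 h replicates 1 and 3 (129 and 180) and HF 6 h replicates 1 and 2 (136 and 170). The block within time ended no call among the named genes and moved the counts of some lists by less than 1.5 times: p53 targets to 11 lower, interferon-inducible GTPases to 9, ATF4 targets to 5, NRF2 genes to 5 and glycolysis genes to 4 higher, and, at 1.5 times, endoplasmic reticulum genes to 3 lower. The cause of these shifts was not tested. The number of arrays limits precision, and dim genes have understated changes.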

Other observations

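Circadian clock genes, chosen after their values were seen, leaned toward higher differences. Of 16 measured, 5 were called higher and 0 lower, against 1.8% of all genes called in either direction, with 11 above 0 and a median of 0.37. The called genes were Nr1d2 (difference 1.27), the period gene Per2 (1.11), Ciart, a clock repressor (1.05), Tef, a PAR bZIP factor (0.81), and the cryptochrome gene Cry2 (0.66). Per2 fell under both compounds, by more under MAZ1310 (-1.62) than under HF (-0.50), while Nr1d2 rose under HF (1.12). Arntl (-0.22) and Clock (0.22), the activating pair, were not called.

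Of 10092 probe sets without a single gene symbol, 14 were called when every probe set was tested. CCAAT was in 45.2% of promoters of called genes, 38.2% of those of tested genes and 37.9% of all. TTTGAA was in 11.1%, 13.3% and 18.1%. Neither share was tested.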
